A study of Mus musculus with 3 samples.

Results

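The primitive streak transcription factors described here are Mixl1, Gsc, Evx1, Lhx1, Tbx6, Mesp1 and Mesp2. They were found as the probe sets whose single annotated gene symbol was 1 of these names: each of the 7 genes had 1 probe set, among 19057 genes with a single symbol. The cells were R1, an embryonic stem (ES) line of the mouse strain 129, and total RNA of 3 biological repeats was read on Affymetrix Mouse Gene 1.0 ST arrays, whose probes lie along the exons of each transcript. All 3 arrays form 1 group of 1 line, with no treatment and no second condition named in the labels, and the culture medium and any feeder layer are not described. The values therefore show whether signal of these genes rose above background in ES cells, and how far the repeats differed. In bulk RNA, fewer cells that express a gene and less of its RNA in each cell cannot be told apart.

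The primitive streak is the site in the gastrulating embryo where epiblast cells leave the epithelium and become mesoderm and definitive endoderm. Nodal, WNT and BMP signals from the epiblast and the surrounding extraembryonic tissues induce it, and a set of transcription factors then marks its regions: Gsc and Lhx1 the anterior end and the node, Mixl1 the whole streak, Evx1 the posterior streak, Tbx6 the paraxial mesoderm that emerges from it, and Mesp1 and Mesp2 the early cardiac and presomitic mesoderm. ES cells resemble the epiblast before this step, and these genes serve as standard readouts of its onset when the cells differentiate.

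Background was set on each array by olfactory and vomeronasal receptor genes, which are used in sensory neurons. The threshold for signal above background was the 95th percentile of 1173 such genes on the same array. That cutoff lay at an intensity of 26.4 in repeat 1, 24.3 in repeat 2 and 24.3 in repeat 3. A second, higher cutoff came from 140 genes of keratin-associated proteins, beta-defensins, taste receptors and late cornified envelope proteins, and lay at 78.3, 79.5 and 80.3. Median intensity over all probe sets was 47.8, 46.7 and 46.8. All 7 measured ES cell markers (Pou5f1, Nanog, Sox2, Esrrb, Klf4, Zfp42 and Dppa5a) exceeded both cutoffs on all 3 arrays. Precision is limited by there being 3 arrays. The streak factors were not ranked by level against one another. They were placed against cutoffs and distributions of other probe sets, and such placements are approximate.

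The streak factors read low in R1 cells. Mixl1, Gsc, Lhx1, Tbx6 and Mesp2, 5 of the 7, lay above the receptor cutoff on all 3 arrays, Mesp1 on 1 array and Evx1 on none. Among all genes outside the receptor families 71.5% lay above it on all 3 arrays, so the share of streak factors was near the background share. None of the 7 exceeded the higher cutoff on any array, while 45.4% of other genes did so on at least 1 and 41.4% on all 3. At the 99th percentile of the receptor genes (intensities of 44.6, 42.0 and 46.0), only Gsc passed on all 3 arrays, against 55% of other genes. Averaged over the arrays, the 7 genes had a median of 0.52 log2 units above the receptor cutoff, against 1.23 for all genes outside the receptor families. Genes in the same window, above the receptor cutoff on all 3 arrays and above the higher cutoff on none, numbered 4724, or 26.4% of those outside the receptor families.

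**Figure D1:**
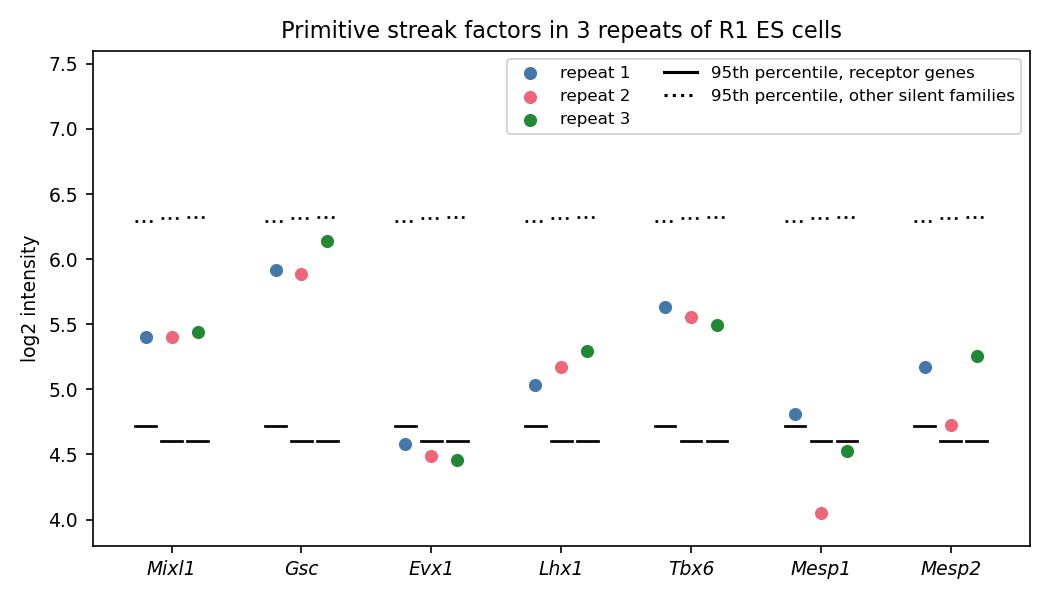
Log2 intensity of the 7 streak factors in each repeat (points), with that array's 95th percentile of receptor genes (solid bars) and of the other silent families (dotted bars). Evx1 lies just under the solid bars and Mesp1 crosses them, the other 5 genes lie above them, and all points lie under the dotted bars. Levels are to be read against the bars and not between genes.

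Gsc (goosecoid) encodes a homeodomain repressor of the anterior streak and organizer. Its intensity was 60.5 in repeat 1, 59.1 in repeat 2 and 70.6 in repeat 3, a mean log2 intensity of 5.98 ± 0.14 (SD, n = 3). All 3 repeats lay clear of the receptor cutoff, by 1.20, 1.28 and 1.54 log2 units, with 99.6% of receptor genes below Gsc on each array. They nevertheless fell short of the higher cutoff by 0.37, 0.43 and 0.19 log2 units.

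Mixl1 encodes a paired-like homeodomain factor needed for the patterning of mesoderm and endoderm in the streak. Its intensities of 42.4, 42.2 and 43.3 were the most even among the 7 genes (5.41 ± 0.020 on the log2 scale, SD, n = 3), and 98.3% of 3378 genes within 0.5 log2 units of its level had a larger SD. The signal stood 0.69, 0.80 and 0.83 log2 units above the receptor cutoff in repeats 1, 2 and 3, and 0.89, 0.91 and 0.89 below the higher one. At the 99th percentile of the receptor genes Mixl1 passed on repeat 2 alone.

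Lhx1 (Lim1) encodes a LIM homeodomain factor of the anterior mesendoderm and node, which works in a complex with the adaptor Ldb1. Its intensity was 32.7, 36.0 and 39.3 in repeats 1, 2 and 3 (5.17 ± 0.13, SD, n = 3). The margin over the receptor cutoff was 0.31, 0.57 and 0.69 log2 units, so the signal exceeded that cutoff on each array but stayed within the range of the brightest receptor genes, of which 30, 20 and 16 were above it.

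Evx1 encodes an even-skipped homeodomain factor of the posterior streak. It read 23.9, 22.4 and 22.0 (4.51 ± 0.064, SD, n = 3), under the receptor cutoff by 0.14, 0.11 and 0.15 log2 units. The 3 repeats lay close together, and 93.9%, 93.7% and 92.5% of receptor genes were below Evx1, so it lay among the brighter genes of the families that set the background. The cutoff is a limit of detection, and Evx1 was not shown to be silent.

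Promoter sequences of 6 of the 7 genes were matched by symbol in RefSeq's table for GRCm38.p6, which gives 250 bases before and 50 after each gene's start. Gsc and Lhx1 are printed because theirs were the richest in CpG dinucleotides, the sites of DNA methylation, which are dense in CpG islands. Capitals mark each CG in the 250 bases before the start, 5′ to 3′. Both genes lie on the minus strand, Gsc at chr12:104473237-104473486 and Lhx1 at chr11:84525535-84525784.
Gsc: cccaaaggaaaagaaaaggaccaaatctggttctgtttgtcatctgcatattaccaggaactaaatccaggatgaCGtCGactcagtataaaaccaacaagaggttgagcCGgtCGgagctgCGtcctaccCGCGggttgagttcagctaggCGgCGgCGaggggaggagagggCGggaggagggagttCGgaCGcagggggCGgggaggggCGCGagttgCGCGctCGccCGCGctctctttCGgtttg
Lhx1: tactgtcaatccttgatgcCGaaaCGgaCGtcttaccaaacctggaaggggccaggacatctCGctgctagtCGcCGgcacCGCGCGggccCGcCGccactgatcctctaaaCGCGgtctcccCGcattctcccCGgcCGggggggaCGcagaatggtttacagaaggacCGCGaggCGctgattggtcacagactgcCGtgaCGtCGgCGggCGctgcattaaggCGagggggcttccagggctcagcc
Over the full 300 bases Gsc held 25 CG dinucleotides and Lhx1 held 31, more than 81.6% and 89.4% of the 32851 promoters in the table, whose median was 7. Evx1 held 12, Mesp2 10, Tbx6 7 and Mesp1 4. Lhx1 and Gsc, with the most, lay above the receptor cutoff on all 3 arrays, and Mesp1, with the fewest, on 1. Evx1, below that cutoff on all 3 arrays, held more than Mesp2 or Tbx6, which were above it. A relation of CG counts to the background call was not tested.

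**Figure D2:**
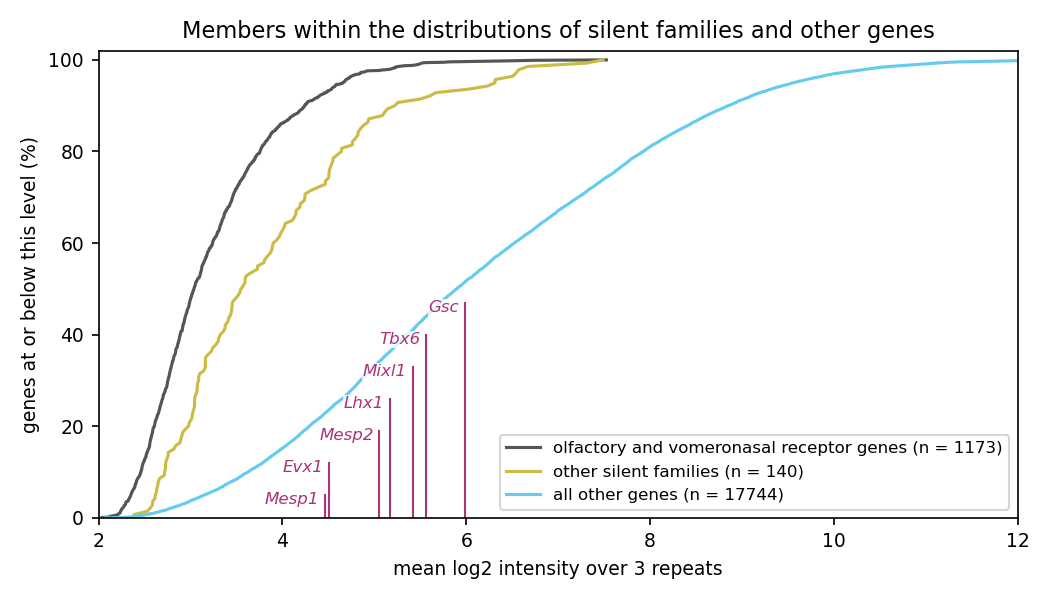
Cumulative share of genes (y axis, percent) at or below each mean log2 intensity over 3 repeats (x axis), for receptor genes, other silent families and all other genes. Vertical lines mark the 7 streak factors, with heights set only to keep the names apart. Each streak factor lies above most receptor genes and most genes of the other silent families, and all lie under log2 6.

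Tbx6 encodes a T-box factor that directs cells leaving the streak to paraxial mesoderm. Its intensity was 49.6, 47.0 and 45.0 in repeats 1, 2 and 3 (5.56 ± 0.071, SD, n = 3). All repeats exceeded the receptor cutoff, by 0.91, 0.96 and 0.89 log2 units, and differed from one another by at most 0.14. Against the 99th percentile of the receptor genes Tbx6 passed on 2 arrays.

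Mesp1 and Mesp2 encode related basic helix-loop-helix factors. Mesp1 marks nascent cardiac mesoderm and Mesp2 sets the boundaries of somites in the presomitic mesoderm, where Tbx6 acts upstream of it. The genes lie on chromosome 7 on opposite strands and are transcribed away from each other, with 0 protein-coding genes between them in the RefSeq gene order. They were the least even of the streak factors, and repeat 2 was the lowest for both.

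Mesp1 read 28.1 in repeat 1, 16.6 in repeat 2 and 23.0 in repeat 3 (4.46 ± 0.38 on the log2 scale, SD, n = 3). Repeat 1 exceeded the receptor cutoff by 0.09 log2 units, while repeats 2 and 3 lay under it by 0.55 and 0.08. Its differences between repeats thus run across the limit of detection, and no fold change is given. Mesp2 read 36.1, 26.5 and 38.1 (5.05 ± 0.28, SD, n = 3). It lay above the cutoff on each array, by 0.46, 0.13 and 0.65 log2 units, so its call in repeat 2 rests on a narrow margin.

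Repeat 2 minus the mean of the other repeats was -0.49 log2 units for Mesp2. For Mixl1, Gsc, Lhx1 and Tbx6, also above the receptor cutoff on all 3 arrays, the same difference was -0.021, -0.15, 0.0069 and -0.0068. Only 0.663% of 3167 genes within 0.5 log2 units of the level of Mesp1 had a larger SD, and 4.68% of 3460 genes near Mesp2. Neither passed the limma variance test, which sets each gene's variance between repeats against that of genes of like level and adjusts by Benjamini-Hochberg over the 13600 genes that exceeded the receptor cutoff on 1 array or more (adjusted p = 0.55 for Mesp1 and 0.865 for Mesp2). Of the 6 streak factors in that test 0 were called, as against 22 of all genes (0.162%). An unadjusted p under 0.05 was found for 2, Mesp1 and Mesp2, against 5.75% of all genes. Mesp1 entered the test only through repeat 1, its highest array, so its p is not independent evidence of a difference between repeats. In the limma variance test fitted over all genes, without that filter, its adjusted p was 0.553. The adjusted p over the alternatives ran from 0.488 to 0.961 for Mesp1 and from 0.804 to 0.997 for Mesp2. The upper ends, 0.961 and 0.997, came from leaving out repeat 2, and leaving out repeat 1 gave 0.959 for Mesp1 and 0.91 for Mesp2. For Gsc, Lhx1, Mixl1 and Tbx6 the variance test gave an adjusted p of 0.997, 0.997, 0.999 and 0.998, and Evx1 was not tested because it was above background on no array.

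**Figure D3:**
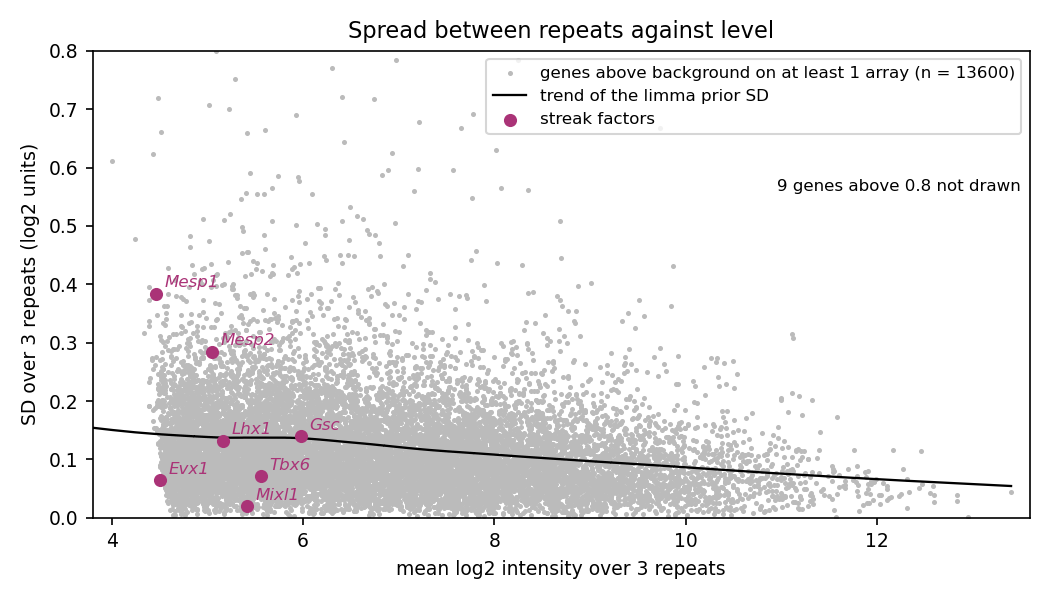
SD over 3 repeats (y axis, log2 units) against mean log2 intensity (x axis) for 13600 genes above background on at least 1 array (grey), with the trend of the limma prior (line) and the 7 streak factors. Mesp1 and Mesp2 lie above the trend, at SDs of 0.38 and 0.28, and the other 5 lie close to it or below; genes with an SD above 0.8 are not drawn.

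The promoters of Mesp1, Mesp2 and Evx1 are shown for the DNA motifs of factors known to act in the streak. Both strands were searched for the T-box motif AGGTGT, the TCF/LEF motif ATCAAAG of WNT signalling and the FOXH1 motif AATNCACA of Nodal signalling. The T-box motif was found in 13.7% of all promoters in the table, the TCF/LEF motif in 3.73% and the FOXH1 motif in 3.6%. Capitals mark each match, on either strand, in the 250 bases before the start of Mesp1 (chr7:79793591-79793840, minus strand), in 30 bases across its start (chr7:79793571-79793600, minus strand), in 30 bases after the start of Mesp2 (chr7:79810737-79810766, plus strand) and in 30 bases before the start of Evx1 (chr6:52313447-52313476, plus strand).
Mesp1 before the start: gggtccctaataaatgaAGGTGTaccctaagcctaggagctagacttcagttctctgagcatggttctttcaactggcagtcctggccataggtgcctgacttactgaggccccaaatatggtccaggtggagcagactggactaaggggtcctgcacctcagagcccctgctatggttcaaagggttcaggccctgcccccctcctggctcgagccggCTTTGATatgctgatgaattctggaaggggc
Mesp1 across the start: tggaaggggcccgcttcACACCTagggctc
Mesp2 after the start: cttcgaggggtcagAATCCACACCTctgca
Evx1 before the start: tcgagcgaggcccACACCTggcgcatcact
Mesp1 held the T-box motif at 2 places and the TCF/LEF motif at 1, and Mesp2 held a FOXH1 match that overlaps a T-box match, joined in the capitals. Evx1 held 1 T-box match, and the promoters of Gsc, Lhx1 and Tbx6 held none of the 3 motifs in this window. A match is a description of the letters and not a site of binding.

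The signals that induce or limit the streak were read next. All 14 measured genes lay above the receptor cutoff on all 3 arrays (background 71.5%), and 6 above the higher cutoff on all 3 (background 41.4%); their median margin over the receptor cutoff was 1.98 log2 units (1.23 over all genes). Nodal, the inducing TGF-beta ligand, read 204, 232 and 182 in repeats 1, 2 and 3, and Gdf3, a related ligand, 838, 761 and 856. Furin, a protease that matures such ligands, read 71.1, 84.4 and 79.3. The WNT ligands Wnt3 and Wnt3a, by contrast with Nodal and Gdf3, stayed under the higher cutoff on every array. Lefty1, a secreted inhibitor of Nodal and a target of its signalling, had the largest SD and read 111, 46.7 and 182.

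Receptors and transducers of these signals were also widely detected. All 18 measured genes exceeded the receptor cutoff on all 3 arrays and 15 the higher cutoff (background 71.5% and 41.4%), with a median margin of 2.92 log2 units over the former (1.23 over all genes). The activin and Nodal receptors Acvr1b, Acvr2a and Acvr2b read 120, 151 and 146 in repeat 1, 110, 152 and 134 in repeat 2, and 140, 130 and 138 in repeat 3. Foxh1, the DNA-binding partner of Smad proteins in Nodal responses, had the list's largest SD, at 101, 82.4 and 132. Protein partners of the streak factors were also detected: 14 of 15 lay above both cutoffs on all 3 arrays, against the same background shares. Ldb1, the adaptor of Lhx1, read 665, 637 and 796, and Ssbp2, which joins the same complex, 98.1, 109 and 99.8. The exception was Ldb2, a relative of Ldb1, at 24.1, 24.5 and 27.0, above the receptor cutoff on 2 arrays. Id3, an inhibitor of basic helix-loop-helix factors, had the largest SD among partners, at 128, 167 and 114.

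Other transcription factors of the streak, mesoderm and endoderm were mostly above the receptor cutoff and mostly below the higher one. Of 17 measured, 14 exceeded the former on all 3 arrays (background 71.5%) and 3 the latter (background 41.4%), with a median margin over the receptor cutoff of 1.29 log2 units, against 1.23 over all genes outside the receptor families. Eomes, a T-box factor of the streak, read 67.8, 81.9 and 83.9 and passed the higher cutoff on 2 arrays. Foxa2, of the anterior streak, read 49.3, 45.7 and 45.7, and Sp5, a WNT target, 76.3, 73.2 and 73.8, both under the higher cutoff on every array. The endoderm factor Sox17 (25.8, 23.5 and 23.6) and the mesoderm factor Foxc1 (17.3, 20.0 and 19.2) were above the receptor cutoff on no array, and Foxc2 (24.0, 31.4 and 21.2) on 1. Otx2, a factor of the epiblast and anterior streak, was among the 3 above the higher cutoff and the least even, at 490, 298 and 446.

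Genes of the presomitic mesoderm, the tissue in which Tbx6 and Mesp2 act, were read as well. Of 14 measured, 9 exceeded the receptor cutoff on all 3 arrays, near the background share of 71.5%, and 3 the higher one (background 41.4%), and the median margin was 0.75 log2 units (1.23 over all genes). Msgn1, a basic helix-loop-helix factor of this tissue, read 64.9, 49.3 and 61.1, and the Notch ligands Dll1 and Dll3 read 56.0, 50.1 and 53.4, and 50.4, 37.6 and 49.5. Ripply2, a target of Mesp2, read 26.0, 20.9 and 19.4, and Meox1, a somite factor, 20.6, 19.1 and 20.4, both under the receptor cutoff on every array. Pax3 (23.9, 24.5 and 24.9), the WNT enhancer Rspo3 (21.2, 25.8 and 22.1) and the retinoic acid enzyme Cyp26a1 (21.9, 29.4 and 32.2) passed on some arrays only. Over the 5 lists together 69 of 78 measured genes exceeded the receptor cutoff on all 3 arrays and 41 exceeded the higher one (background 71.5% and 41.4%).

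The lists were then compared between repeats over the 69 genes above the receptor cutoff on all 3 arrays. Repeat 2 was the lowest array for 30 of them and the highest for 25, and their median difference in repeat 2 from the mean of the other repeats was -0.021 log2 units. At more than 0.3 log2 units, a limit chosen after the values were seen, 10 (14.5%) were lower in repeat 2 and 3 (4.35%) higher, against 4.21% and 5.45% of all genes outside the receptor families that passed on all 3 arrays. The lists too were chosen with earlier results of these data known. These shares therefore describe the lists and do not test them against all genes. The 10 were Lefty1 (-1.61), Lefty2 (-0.86), Otx2 (-0.65), Lef1 (-0.52), Foxh1 (-0.49), Wnt3a (-0.41), Dll3 (-0.41), Msgn1 (-0.35), Hes7 (-0.34) and Cdx1 (-0.30). Bmp4 (0.35), Tbx3 (0.43) and Id3 (0.46) were the 3 in the other direction. Among the 5 streak factors that passed on all 3 arrays, Mesp2 was past the limit and lower, and the other 4 were within 0.15 log2 units of the other repeats.

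Lefty1 alone among the genes of the 5 lists passed the limma variance test (adjusted p = 0.00832 by Benjamini-Hochberg over 13600 genes). The call was lost without repeat 1 (adjusted p = 0.135), without repeat 3 (0.0821) and with a prior that has no trend on level (0.0942). Over the alternatives the adjusted p of Lefty1 in this test ranged from 0.00203 to 0.135. Markers of fibroblasts, the usual feeder cells, mostly stood higher in repeat 2. Of 9 measured, 7 were highest there, each by more than 0.3 log2 units over the mean of the other repeats (background 5.45%). S100a4 (-0.44) and Lum (-0.23) were lowest there, and Lum was above background on no array. The summed intensity of the 9 was 1249, 2049 and 1342 in repeats 1, 2 and 3. Among the 9, Acta2 (190, 553 and 270) alone passed the limma variance test (adjusted p = 0.00832, background 0.162%). Of 7 ES cell markers 5 were also highest in repeat 2, 2 of them by more than 0.3 log2 units. Their median difference from the other repeats was 0.095 log2 units, against 0.50 for the 7 fibroblast markers above background on all 3 arrays. The 7 ES cell markers summed to 17100.1, 18388.8 and 16584.5. Markers of primitive endoderm summed to 295, 318 and 320 and of trophoblast to 415, 441 and 413. In each of these 2 lists 4 markers were above background on all 3 arrays, and 0 were higher in repeat 2 by that limit. The part of these cell types in the lower values of repeat 2 was not tested.

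**Figure D4:**
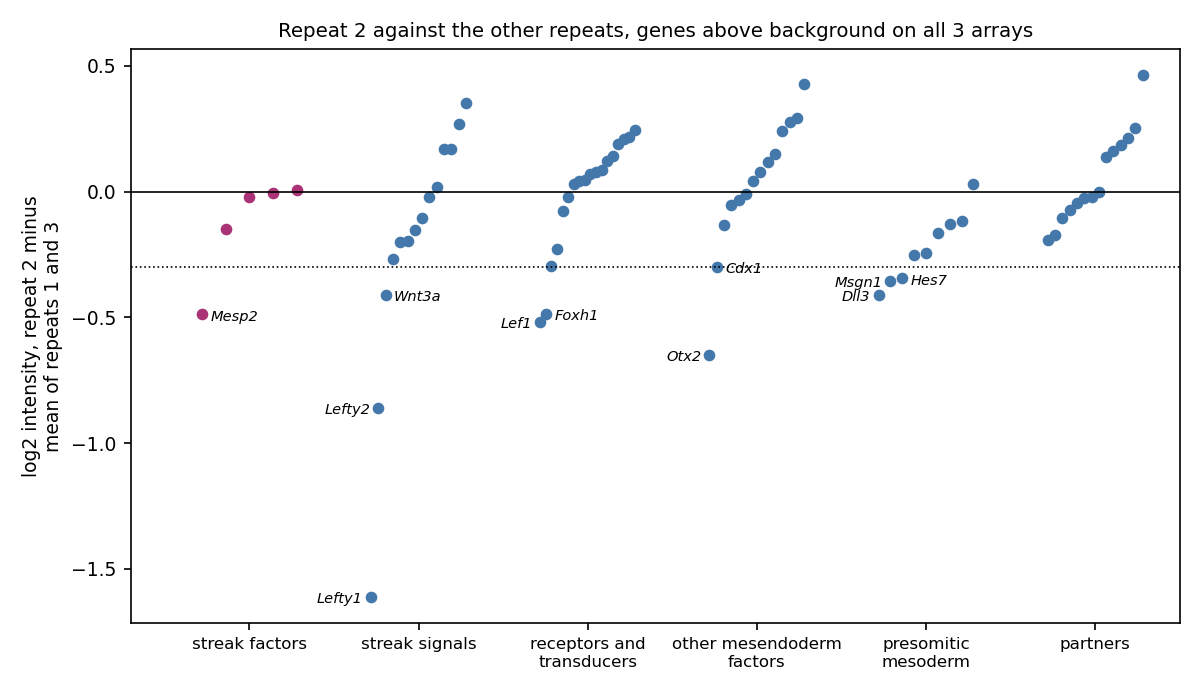
Log2 intensity in repeat 2 minus the mean of repeats 1 and 3 (y axis) for streak factors and the 5 fixed lists (x axis), each point a gene above the receptor cutoff on all 3 arrays. The dotted line marks -0.3; Mesp2 lies under it with 10 list genes, Lefty1 lowest at -1.61, while the other 4 streak factors drawn lie within 0.15 of 0. Mesp1, below the cutoff in repeats 2 and 3, and Evx1, below it on all 3 arrays, are not drawn.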

How the data were processed

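Total RNA was isolated with Trizol and biotin-labelled with the Affymetrix terminal labelling kit for whole transcripts, as the labels' protocols state. The authors deposited 1 linear intensity per probe set, and the submitters' processing notes name GCOS 1.4. How background was corrected, arrays were normalized and probe sets were summarised, and on which genome build, is not stated in the labels or headers. Of 26730 probe sets, 20764 had 1 gene symbol, 1419 several and 4547 none listed, and only the first were used. Names came from the platform annotation supplied with the values, and 20678 of these probe sets matched RefSeq of GRCm38.p6 by gene identifier. T, the gene of brachyury, and Tdgf1 were not analysed here.

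Intensities were taken to log2 with a lower limit of 1, which changed 0 values, with no further normalization, and probe sets of a gene were averaged (930 genes). The variance test used limma 3.58.1 in R 4.3.3: an intercept-only fit, with the residual variance over the trended, robust prior set against F with 2 and 9.85 degrees of freedom. Tested on simulated data of 13600 genes, it recovered 74% of shifts of 1 log2 unit on 1 array and all of those of 1.5, and 11 of its 185 calls were false. The simulated variances were drawn from the test's own fitted prior with normal noise, which favours the test. Smaller shifts were not simulated, so recovery at the repeat 2 differences of Mesp1 (-0.62) and Mesp2 (-0.49) is not known. P-values measure only the spread between these samples. Scripts ran under Python 3.11.15 with numpy 2.4.6 and pandas 2.3.3. The members and lists were chosen with earlier results of these data known. Every member is named. In each list the named genes are the first 3 measured, the gene of largest SD, and all genes on whichever side of the background cutoff held at most 5. Other names were chosen after their values were seen.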

Additional observations from a re-analysis of the deposited data

How the results depend on the processing

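The same 5 streak factors lay above background under quantile normalization, centring on the median, the highest probe set of a gene, 2 of 3 arrays sufficing, and without each repeat in turn (5 in each case). At the same 95th percentile the other silent families gave cutoffs of 78.3, 79.5 and 80.3, against 26.4, 24.3 and 24.3 for the receptor genes. The level of background is uncertain between these groups. The count was 1 (Gsc) at the 99th percentile of the receptor genes and 0 with the other silent families. With the latter the list genes numbered 41 in place of 69, and all genes 7345 in place of 12826. No streak factor was called by the limma variance test under any alternative. Over all genes its count of 22 became 10 without the robust prior, 1 without the trend, 13 after quantile normalization and 39 after centring, and ran from 0 to 34 with a repeat left out; the cause was not tested. Of 133 alternative values of the streak factors' means and differences between repeats, 130 moved by no more than the SD; the 3 others were differences of Mixl1, whose SD is the smallest. The difference of repeat 2 kept its sign for Mesp2 (-0.45 after quantile normalization). Near 0 it changed sign for Mixl1 (0.012), Tbx6 (0.0084) and Evx1 (0.014) after quantile normalization, and for Tbx6 (0.011) after centring. No paired analysis was possible because there is 1 group.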
